A study of Mus musculus with 9 samples.

Results

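Saa1, Saa2, Saa3, Saa4, Lcn2 and Cxcl1 are 6 of the 1525 genes listed in the deposited comparison of adult Alb-D2KO and control mouse liver. The list holds only genes that the authors' own test called different between the genotypes, not all genes measured. The 6 genes were chosen from the same deposited genotype means that are described here, so their direction and their ratios are a description and no test was applied to them. Alb-D2KO mice carry a floxed Dio2 allele, which encodes the type 2 deiodinase, together with Cre recombinase expressed from the albumin promoter. The albumin promoter is active in hepatocytes, so the deletion is meant for that cell type among those of the liver. Control mice expressed Cre recombinase too. All animals were adults on chow, of the strain labelled C57BL/6 and given as C57BL/6J in the methods, and the labels gave 4 Alb-D2KO and 5 control livers with 1 library each. At issue was how the adult liver transcriptome differs when hepatocytes have lacked this enzyme, which makes active thyroid hormone around birth.

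Serum amyloid A proteins are small apolipoproteins made mainly by hepatocytes and carried on high-density lipoprotein. In the mouse, Saa1 and Saa2 are the strongly inducible acute-phase forms, Saa3 is made largely outside hepatocytes, including in macrophages and adipose tissue, and Saa4 is the constitutive form. Lcn2 encodes lipocalin 2, which binds bacterial siderophores and so withholds iron, and Cxcl1 encodes a chemokine that attracts neutrophils through Cxcr2. Textbook inducers are interleukin 6 acting through STAT3, and interleukin 1 and tumour necrosis factor acting through NF-kappaB and C/EBP factors. Between them they cover all of these genes but Saa4, and not every inducer acts on every gene.

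The Saa genes form a cluster of 42.3 kb on chromosome 7 (46711998 to 46754313, mm10), in the order Saa3, Saa4, Saa1 and Saa2. Saa1 (ENSMUSG00000074115.5, 46740497 to 46742980, minus strand) and Saa2 (ENSMUSG00000057465.5, 46751790 to 46754313, plus strand) are transcribed away from each other, with 8809 bases between their starts. Saa3 (ENSMUSG00000040026.8) spans 46711998 to 46715700 and Saa4 (ENSMUSG00000040017.8) 46727998 to 46732603, both on the minus strand. Lcn2 (ENSMUSG00000026822.14) lies on chromosome 2 (32384633 to 32388252, minus strand) and Cxcl1 (ENSMUSG00000029380.11) on chromosome 5 (90891241 to 90893115, plus strand).

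The sequences before 5 of the 6 genes are shown for comparison, because Saa1 and Saa2 share theirs almost in full. They are RefSeq promoters of the mm10 build (GRCm38.p6), all printed 5′ to 3′ on the strand of the gene, and they stop where a GENCODE transcript begins. The Lcn2 window (chr2:32387740-32387989, minus strand) lies within the GENCODE extent of the gene, so it was searched but is not printed. Capitals mark matches to the motifs searched. The regions are chr7:46742981-46743230 (Saa1, minus strand), chr7:46751583-46751789 (Saa2, plus strand), chr7:46715701-46715926 (Saa3, minus strand), chr7:46732604-46732853 (Saa4, minus strand) and chr5:90890995-90891240 (Cxcl1, plus strand).
Saa1: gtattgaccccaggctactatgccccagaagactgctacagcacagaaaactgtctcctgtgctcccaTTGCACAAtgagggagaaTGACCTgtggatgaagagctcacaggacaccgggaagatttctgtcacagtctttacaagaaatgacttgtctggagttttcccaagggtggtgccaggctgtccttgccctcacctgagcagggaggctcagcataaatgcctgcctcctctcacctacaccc
Saa2: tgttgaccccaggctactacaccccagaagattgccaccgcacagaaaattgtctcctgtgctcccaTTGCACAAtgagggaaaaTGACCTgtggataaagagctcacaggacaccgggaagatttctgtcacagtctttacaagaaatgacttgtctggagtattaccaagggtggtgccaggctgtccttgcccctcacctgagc
Saa3: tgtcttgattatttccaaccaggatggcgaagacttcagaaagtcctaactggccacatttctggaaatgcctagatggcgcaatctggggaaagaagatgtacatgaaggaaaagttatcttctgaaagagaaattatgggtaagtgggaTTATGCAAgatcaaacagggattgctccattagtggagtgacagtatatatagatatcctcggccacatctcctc
Saa4: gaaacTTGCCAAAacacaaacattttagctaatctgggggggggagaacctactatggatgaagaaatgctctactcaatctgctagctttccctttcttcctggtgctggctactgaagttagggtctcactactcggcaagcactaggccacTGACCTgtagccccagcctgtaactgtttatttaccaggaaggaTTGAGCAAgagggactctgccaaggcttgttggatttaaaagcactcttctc
Cxcl1: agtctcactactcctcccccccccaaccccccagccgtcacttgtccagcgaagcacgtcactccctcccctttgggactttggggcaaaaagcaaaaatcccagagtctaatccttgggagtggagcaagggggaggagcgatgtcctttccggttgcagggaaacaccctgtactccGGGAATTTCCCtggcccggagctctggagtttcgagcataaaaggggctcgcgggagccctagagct

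Over the 250 bases before the RefSeq start, the Saa1 and Saa2 sequences were 94.8% identical in a global alignment. Saa1 and Saa3 were 48.2% identical over the same window and Saa1 and Saa4 46.3%, close to the 46.5% between Saa1 and the unrelated Cxcl1. The coding sequences gave the same order. Saa1 and Saa2, each of 366 coding bases, were 95.1% identical, against 74.3% for Saa1 with Saa3 and 64.4% for Saa1 with Saa4. Among the genes chosen, Saa1 and Saa2 also had the largest ratios, which are given below. Reads can be divided between the pair only in part, so their ratios are not independent of each other. Whether the shared promoter sequence bears on the ratios was not tested.

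The motifs were searched on both strands of the 250 bases. TTNNGCAA, a C/EBP-type motif, was present in the windows of 5 of the 6 genes, Cxcl1 being the exception. It was in 9.56% of 32851 RefSeq promoter windows of the same length. The Lcn2 window lies within the annotated gene, and the Saa1 and Saa2 windows are nearly alike. Nothing is therefore read from the number of genes with a match. The match before Saa1 lay 182 to 175 bases before the start and that before Saa2 183 to 176. In Saa3 it lay 99 to 92 bases before the start, in Lcn2 216 to 209, and Saa4 held a pair at 245 to 238 and 52 to 45. The kappaB consensus was present before Cxcl1 alone, as overlapping matches on opposite strands 71 to 61 bases before the start, and in 7.25% of all windows. AGGTCA, the half-site bound by many nuclear receptors, was present before Saa1, Saa2 and Saa4, and in 14.0% of all windows. TTCNNNGAA (STAT type, 7.02% of all windows) and TATAAA (12.4%) were in 0 of the 6 windows. These are matches of letters and not measured binding.

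**Figure D1:**
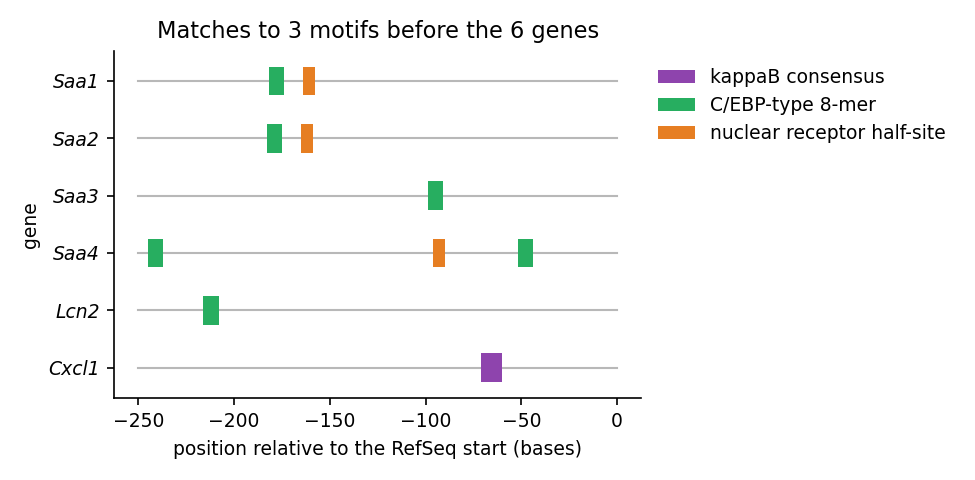
Positions of motif matches in the 250 bases before the RefSeq start of each gene, with the distance from the start in bases on the horizontal axis and 1 line per gene. Saa1 and Saa2 carry the same pair of motifs at positions that differ by 1 base, whereas the kappaB match is before Cxcl1 only among the 6 genes.

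Depth bears on every ratio here, because the deposited means appeared to be counts not scaled for it. The genotype sums of Saa3 (352 and 287) and of Lcn2 (739 and 385) in Alb-D2KO and control, for example, were whole numbers. Reads assigned to genes ranged from 28864613 to 36332719 in Alb-D2KO and from 29692773 to 37016072 in control libraries, a log2 difference of -0.10 that did not exceed the variation among libraries (p = 0.302 in a two-sided exact permutation test, n = 4 and 5; the smallest p this design allows is 0.0159). The 4 Alb-D2KO libraries held 42.7% of all assigned reads. Dio2 was outside the listed genes, and the paper describes its liver expression as silenced after the neonatal peak. Its level could therefore not be used to check the genotypes. The table holds a mean per genotype and a sum over the 9 libraries, so values of single animals and their SD are not analysed here. Of the hepatocyte markers looked up, Tat alone was listed. The list holds only genes called different between the genotypes, so an unlisted marker says nothing of the tissue.

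All 6 genes were higher in Alb-D2KO liver, as were 162 (10.6%) of the 1525 listed genes. All 6 were higher by at least 1.5-fold, against 7.93% of the listed genes, and 4 of the 6 by at least 2-fold, against 3.80%. The rule that chose the genes used this contrast, so nothing is read from these shares. The listed genes had passed the authors' own test, so neither these shares nor the medians over listed genes describe all genes measured. The median ratio of the 6 genes was 3.62, that of all listed genes was 0.686, and that of the listed genes that were higher was 1.69. With Saa1 and Saa2, which share much of their sequence, summed into 1 value, the median was 2.40.

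The acute-phase pair Saa1 and Saa2 had the largest ratios of the 6. The authors' mean for Saa1 was 4246 estimated counts in Alb-D2KO and 760.4 in control liver, a ratio of 5.58. The summed count of Saa1 was 20786, of which 81.7% came from the Alb-D2KO libraries (exact binomial 95% interval 81.2% to 82.2%). For Saa2 the means were 1988 in Alb-D2KO and 257 in control liver, a ratio of 7.74, and of its summed count of 9234, 86.1% came from the Alb-D2KO libraries (85.4% to 86.8%). These intervals, here and for the other genes, cover counting error only and not the spread between animals, which the files used here do not give.

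Because the pair is so alike, reads can be divided between them only in part. Of all 31-base words in Saa1 transcripts, 46.0% also occurred in Saa2 transcripts, and 44.4% of those of Saa2 in Saa1. The summed means do not depend on that division and were 6234 in Alb-D2KO and 1017 in control liver, a ratio of 6.13 (counting interval 5.95 to 6.32). The Saa1 mean was 2.96 times the Saa2 mean in control and 2.14 times in Alb-D2KO liver. The other members share fewer words with any other gene, 7.56% in Saa3, 1.63% in Saa4 and 0% in Lcn2 and Cxcl1.

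Saa4, the constitutive form, had the smallest ratio and the largest count. The authors' mean for Saa4 was 13698 in Alb-D2KO and 9073 in control liver, a ratio of 1.51, and its summed count of 100155 ranked 19th among the 1525 listed genes. Of that sum, 54.7% came from the Alb-D2KO libraries (54.4% to 55.0%). As a difference in counts rather than a ratio, Saa4 exceeded the other 5 genes, with 4625 more estimated counts per Alb-D2KO library than per control library, against 3486 for Saa1 and 1731 for Saa2. Saa3 was the least abundant in estimated counts, at a mean of 88.0 in Alb-D2KO liver and 57.4 in control liver, a ratio of 1.53. Of its summed count of 639, 55.1% came from the Alb-D2KO libraries, and the wider interval of 51.1% to 59.0% follows from the low count.

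**Figure D2:**
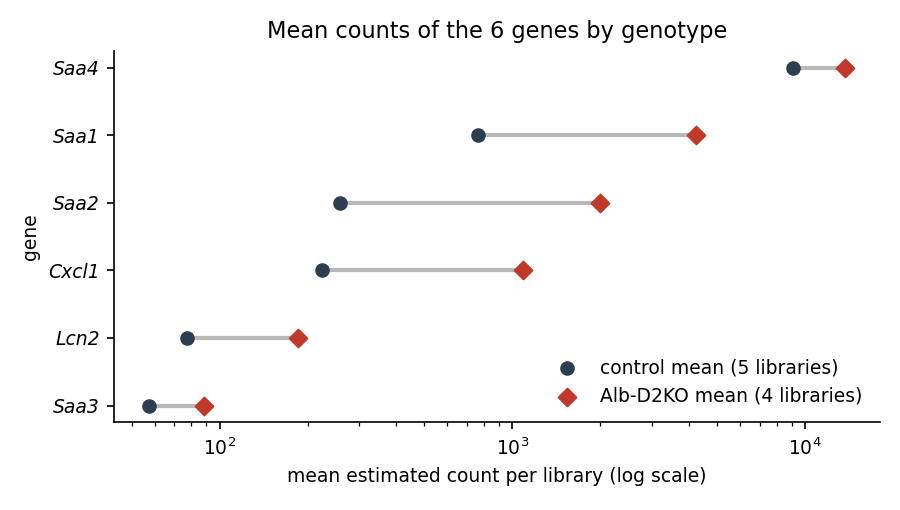
The authors' mean estimated count per library of each gene in control (circles, 5 libraries) and Alb-D2KO liver (diamonds, 4 libraries), on a log axis, with no error bars because values of single libraries are not analysed here. The Alb-D2KO mean is the higher one for all 6 genes, and on this axis the gap is widest for Saa2, from 257 to 1988.

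Lcn2 had authors' means of 185 estimated counts in Alb-D2KO and 77.0 in control liver, a ratio of 2.40. Its summed count was 1124, with 65.7% from the Alb-D2KO libraries (62.9% to 68.5%). Cxcl1 had means of 1087 in Alb-D2KO liver and 224 in control liver, a ratio of 4.85. Of its summed count of 5471, 79.5% came from the Alb-D2KO libraries (78.4% to 80.6%). In control liver the Cxcl1 mean was close to that of Saa2, whereas in Alb-D2KO liver the Saa2 mean was the higher.

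Ranked by ratio among the 162 listed genes that were higher, Saa2 was number 2, Saa1 number 5, Cxcl1 number 7 and Lcn2 number 38. Saa3 and Saa4 followed at 113 and 118. The ratios of Saa3 and Saa4 were below the median of the listed genes that were higher. Division by the ratio of mean assigned reads, 0.932, moved every ratio up by the same factor, to 8.30 for Saa2, 5.99 for Saa1, 5.20 for Cxcl1, 2.57 for Lcn2, 1.64 for Saa3 and 1.62 for Saa4.

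**Figure D3:**
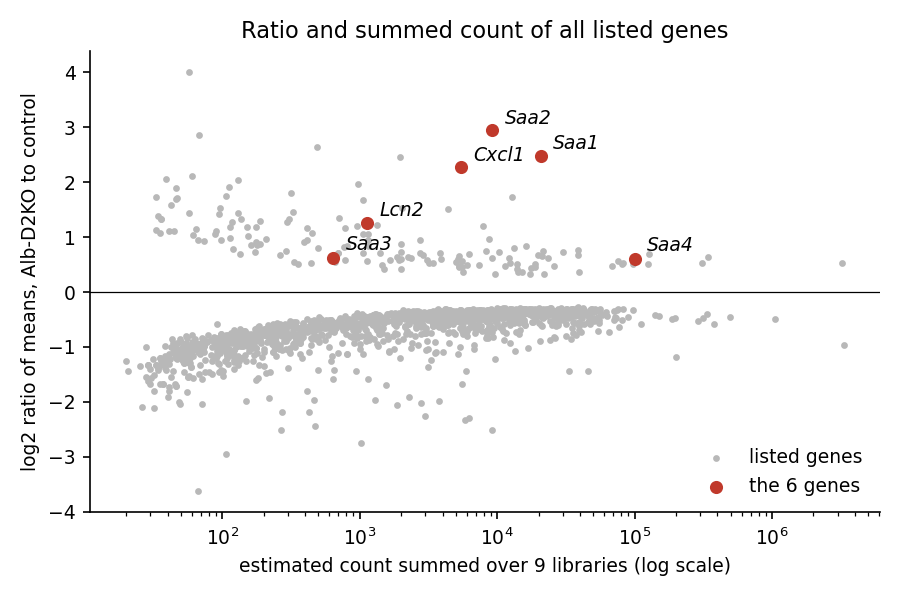
The log2 ratio of the genotype means, Alb-D2KO to control, against the estimated count summed over 9 libraries (log axis) for the 1525 listed genes (grey) and the 6 genes (red). Saa2, Saa1 and Cxcl1 lie at 2.95, 2.48 and 2.28 on the log2 scale with summed counts of 9234, 20786 and 5471, while Saa3 and Saa4 lie at 0.62 and 0.59 with summed counts of 639 and 100155.

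The make-up of the Saa counts also differed between the genotypes. Summed over Saa1 to Saa4, the means were 20019 in Alb-D2KO and 10147 in control liver, a ratio of 1.97. Saa4 supplied 89.4% of these counts in control and 68.4% in Alb-D2KO liver. Saa1 supplied 7.49% in control and 21.2% in Alb-D2KO liver, Saa2 2.53% and 9.93%, and Saa3 0.566% and 0.440%. Of the difference in Saa counts between the genotypes, Saa1 and Saa2 made up 52.8% and Saa4 46.8%. The counts behind these shares are not divided by transcript length. The Saa4 transcript has 2094 bases, against 609 in Saa1, 606 in Saa2 and 555 in Saa3. On the length-scaled levels given below, Saa4 was the highest in control liver but Saa1 in Alb-D2KO liver. The mean of Saa4 was 156 times that of Saa3 in Alb-D2KO and 158 times in control liver, a nearly equal proportion, whereas Saa4 exceeded Saa1 by 3.23 times in Alb-D2KO and 11.9 times in control liver.

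**Figure D4:**
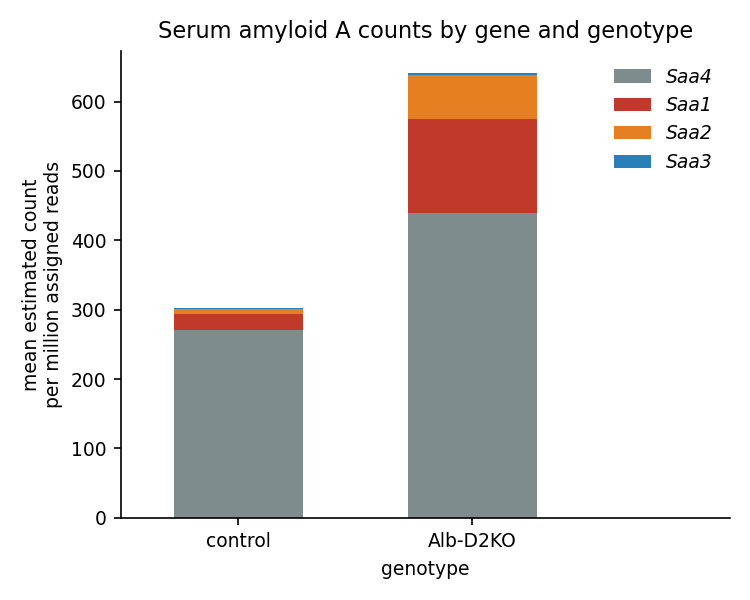
Mean estimated counts of the Saa genes per 1000000 assigned reads, stacked by gene for each genotype, as group means with no error bars. The stack reaches 303 in control and 641 in Alb-D2KO liver, and the part from Saa1 and Saa2 is 30.4 and 199.6. The counts are not divided by transcript length.

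Levels were compared between genes as the mean estimated count per kilobase of the lowest-numbered protein-coding transcript of the gene per 1000000 assigned reads. On that scale the order in control liver was Saa4 (129), Saa1 (37.3), Saa2 (12.7), Cxcl1 (7.03), Saa3 (3.09) and Lcn2 (2.51). In Alb-D2KO liver it was Saa1 (223), Saa4 (210), Saa2 (105), Cxcl1 (36.5), Lcn2 (6.47) and Saa3 (5.08). Per length, the Saa1 level was below that of Saa4 in control and slightly above it in Alb-D2KO liver, although Saa4 had more counts in both. The Saa4 transcript has 2094 bases and that of Saa1 609, and the choice of transcript sets these levels but not the ratios. Lcn2 and Saa3 also traded places. Whether neighbours in either order differ beyond the spread between animals could not be asked of genotype means. In whole liver, a larger number of cells expressing a gene and more RNA per cell cannot be told apart.

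The 3 nearest protein-coding genes on each side of the Saa cluster, among them Saal1 at 1318 bases and Hps5 at 6153 bases, were all outside the listed genes, as were the 6 around Lcn2. Within the cluster the ratio was 1.53 at Saa3, 1.51 at Saa4, 5.58 at Saa1 and 7.74 at Saa2. Beside Cxcl1, 1 of 6 neighbours was listed. This was Cxcl2, which encodes a related neutrophil chemokine and begins 10756 bases beyond the end of Cxcl1. Its means were 8.5 in Alb-D2KO and 2.6 in control liver, a ratio of 3.27, and at a summed count of 47 the counting interval ran from 1.68 to 6.75.

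**Figure D5:**
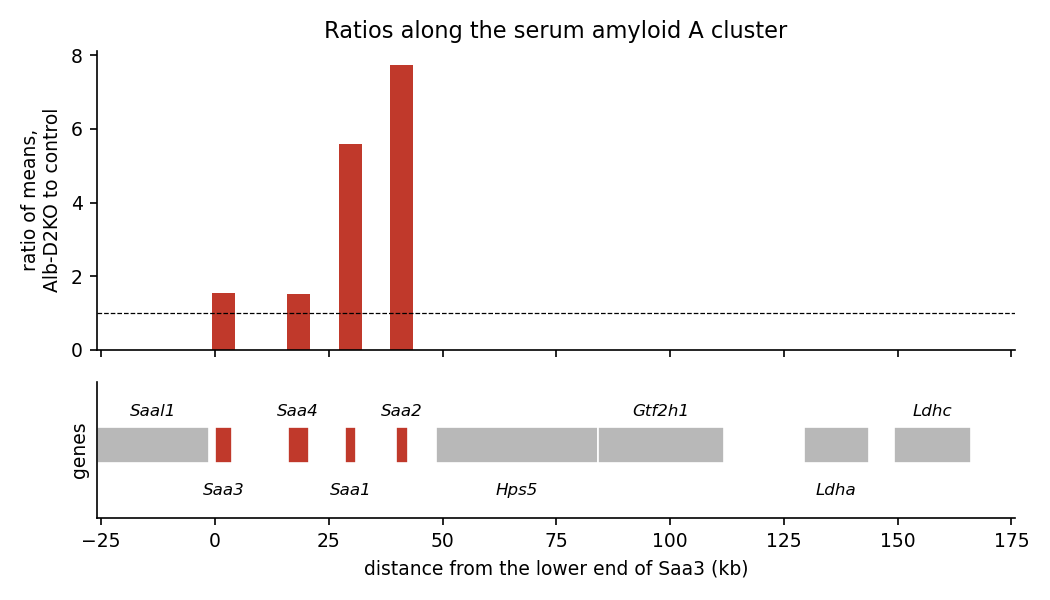
Ratio of genotype means (upper panel, dashed line at 1) at each Saa gene along the cluster, with protein-coding genes drawn to scale below as distance in kilobases from the lower end of Saa3. The 4 Saa genes (red) have bars, the flanking genes (grey) are not listed and have no value, and the bars of Saa1 and Saa2 reach 5.58 and 7.74 against 1.53 and 1.51 for Saa3 and Saa4.

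Other genes of the same response were looked up in lists by function, and a gene outside the table has no value here. The lists were written by hand and are not complete. The share of quantified genes that is listed is not given here, so nothing is read from counts of listed genes or neighbours. Of the 1525 listed genes 1363 were lower, so a lower value is shared with most of them. Of 31 genes looked up as raised in an acute-phase response, the constitutive Saa4 included, 8 were listed. Members of the 6 genes make up 5 of these 8. Beside Saa1, Saa2, Saa3, Saa4 and Lcn2, Lrg1, a secreted leucine-rich glycoprotein, was higher (12868 against 9033, ratio 1.42). The others were lower. Mt2, a metal-binding metallothionein, had an Alb-D2KO mean of 75.0 against 312 in controls (ratio 0.240), and Hamp2, a hepcidin paralogue, 128 against 292 (ratio 0.436). The listed genes raised in the acute phase therefore did not all go one way, and Hp, Orm1, Crp, Fgb and 19 others were outside the table.

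Of 12 genes that fall in an acute-phase response, 2 were listed. Both were lower, as were 1363 of the 1525 listed genes, so nothing is read from their direction. Serpina6, the corticosteroid-binding globulin, had a ratio of 0.670, and Pon1, an esterase carried on high-density lipoprotein, 0.726. Of 36 genes looked up for cytokine, STAT3 and NF-kappaB signalling, 3 were listed. NF-kappaB pathway genes outside those 36 were listed too. Among them Ikbke was higher (log2 ratio 0.36), whereas Ripk1 (-0.32), Malt1 (-0.37), Bcl10 (-0.46), Tab2 (-0.32) and Tab3 (-0.47) were lower. Tnfaip3, a feedback inhibitor of NF-kappaB, averaged 149 in Alb-D2KO and 91.4 in control livers (ratio 1.63). Nfkbiz, an inducible nuclear cofactor of NF-kappaB, averaged 430.0 and 298 (ratio 1.44). Osmr, the oncostatin M receptor, was lower, at 106.5 against 158 (ratio 0.672). Il6, Il1b, Tnf, Stat3 and Socs3 were outside the table.

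Of 23 chemokine genes looked up, 2 were listed, Cxcl1 and Cxcl2. Cxcl11, a chemokine outside those 23, was also listed and higher (log2 ratio 0.68, summed count 647). Of 15 receptors and partners of the 6 genes, 2 were listed. Lrp2, the endocytic receptor megalin that takes up lipocalin 2, averaged 154 in Alb-D2KO and 66.8 in control livers (ratio 2.31). Cd36, a scavenger receptor for fatty acids and serum amyloid A, averaged 364 and 599.8 (ratio 0.607).

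Markers of cells that could supply these transcripts were mostly outside the table. Of 12 neutrophil, 11 Kupffer cell and 6 monocyte markers, 0 were listed in each case, and of 9 lymphocyte markers 1 was, Cd3e (ratio 0.520). Of 5 sinusoidal endothelial markers Stab2 (0.805) and Kdr (0.789) were listed, of 6 stellate cell markers 0, of 5 cholangiocyte markers Sox9 (1.51), and of 8 hepatocyte markers Tat (1.44). Absence from the table does not show an equal level, and the part of other cell types in the ratios was not tested.

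Among other listed genes summing to 100 or more counts, the 3 nearest to the median of the members' log2 ratios, 1.77, by the absolute difference of log2 ratios over the 2 genotypes, were Dkk4 (ratio 3.36), Akap6 (3.48) and Hspa1b (3.30), at differences of 0.020, 0.029 and 0.046.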

How the data were processed

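RNA-seq was made from 9 livers. The authors sequenced paired-end libraries, aligned them with STAR to GENCODE M24 (mm10) in Partek Flow and deposited estimated counts from its expectation-maximisation counter; use of strand is not given in the sources used here. The deposited gene table gives each listed gene's estimated count summed over libraries and its mean per genotype, and the deposited library tables give read counts, the percent of reads by position and quartiles over genes. Sums and means agreed, weighted by 4 Alb-D2KO and 5 control libraries, in 1525 of 1525 genes within 0.01%. The table is restricted by the authors' own test. Its p-value, false discovery rate, ratio and fold change columns, and the enrichment tables, hold the authors' comparison and were not used, nor were 5 per-library columns.

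Ratios of means were computed as deposited and divided by 4 depth ratios. Assigned reads are total reads times the percent within an exon, compared by an exact permutation test (scipy 1.17.1). Sequence comparisons used GENCODE M21 and RefSeq GRCm38.p6 (mm10 both; 6 of 6 genes matched) and biopython 1.88. Scripts were tested on simulated data. Replicates were numbered in accession order. Titles give each library an animal number. The 6 genes and the lists were chosen with earlier results of these data known. Genes named are members, listed genes of the lists, neighbours, and the 3 genes nearest in ratio with a summed count of at least 100. Unlisted genes, Cxcl11, the NF-kappaB pathway genes outside the list, and genes in the closing observations were named after their values were seen.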

Additional observations from a re-analysis of the deposited data

Results flagged for a closer look

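Total reads of Alb-D2KO replicate 1, 50322325, stood apart from those of the other Alb-D2KO libraries, with a gap of 0.852 of the range of the group, against a limit of 0.829 for 4 samples. Of 8 groups examined (4 measures in 2 genotypes) this was 1, and chance marks about 1 in 20. Its assigned reads, on which the length-scaled levels rest, lay just short of that limit, with a gap of 0.825, and its share in the ratios of the 6 genes was not tested.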

How the results depend on the processing

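The genotype means rest on 4 against 5 libraries with no value per library here, so no replicate was left out of a gene result, and the count models, planned only for counts per gene and library, were not run. No paired analysis was possible because the replicate numbers only follow accession order. The number of higher members was 6 under each of the 4 depth divisions and at 1.5-fold, and 4 at 2-fold. All 24 member ratios after division stayed above 1, and 8 stayed within their counting interval; division raised each ratio by construction. The median ratio of the members, 3.62, became 4.03 after division by total reads, 4.07 after division by the median over genes and 2.40 with Saa1 and Saa2 summed, which leaves 5 values in place of 6; it was 3.89 and 3.93 after the other divisions and 3.60 with 1 count added. The 9 comparisons of assigned reads that left out a replicate gave -0.18 to -0.06, with exact permutation p from 0.0714 to 0.543; leaving out Alb-D2KO replicate 1 gave -0.18, control replicate 3 -0.06 and Alb-D2KO replicate 3 -0.07, against -0.10 with all libraries. Listed genes that were higher made up 10.3% among those summing to 100 counts or more and 9.88% from 1000.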

Other observations

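Among the 136 listed genes that were higher and had a summed count of at least 100, the ratios that followed Cxcl1 included those of the heat shock protein 70 genes Hspa1a (3.91, summed count 972) and Hspa1b (3.30, summed count 12717), and of Tff3, a secreted trefoil peptide (3.21, summed count 1050). By the difference in mean counts rather than the ratio, Saa4 was number 6, Lrg1 number 7 and Saa1 number 8 among the listed genes that were higher, behind Serpina1e, Fasn, Tat, Thrsp and Srebf1. These genes were picked out after their values were seen.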
